A study of Mus musculus with 31 samples.

Results

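The genes described here are the ligands and receptors of 4 axon guidance systems: netrins with their Unc5 receptors, Slits with Robo receptors, semaphorins with plexins, and ephrins with Eph receptors. Members were taken by symbol prefix from the autosomal rows of the 5 deposited allele-specific tables, whatever their level, which gave 59 genes of 16764 autosomal features and 17484 features in all. They comprised 32 ligands (19 semaphorins, 7 ephrins, 3 Slits and 3 netrins) and 25 receptors (11 Eph receptors, 6 plexins, 4 Robos and 4 Unc5 receptors). The other 2, Unc50 and Unc5cl, matched by spelling and are not netrin receptors, and they are counted but not read as guidance genes. Another 3 genes of these families, Efnb1, Plxna3 and Plxnb3, are X-linked and were left out.

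RNA was measured in F1 hybrids of the mouse strains C57BL/6 (B6) and JF1 in 25 libraries. Embryonic stem cells (ESCs) gave 4 libraries, cultures differentiated towards cortex gave 4 at day 12 and 4 at day 21, embryonic tissue (stage E13.5, labelled DT) gave 6, and newborn cortex (P0, labelled Ctx) gave 7. Both reciprocal crosses were present at every stage: BJ1 had a B6 mother and JB6 a JF1 mother, with 2 libraries each per culture stage, 3 each at E13.5, and 4 BJ1 with 3 JB6 at P0. The study asked how allelic expression in cortex made from ESCs compares with that in the animal. ESCs came from blastocysts whose B6 parent carried an Oct4-GFP reporter, and were kept in medium with a GSK3β inhibitor, LIF and BMP4. For differentiation they were plated on matrigel in defined medium with B27 lacking vitamin A, and cyclopamine, a Hedgehog pathway inhibitor, was present at 1 µM from day 2 to day 10. All 12 cell libraries were labelled male, against 2 of 13 tissue libraries. The labels do not say whether replicates were separate lines, cultures or animals, so p-values measure the spread between these libraries, which may in part be technical.

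Guidance systems steer growing axons and migrating neurons by contact or by secreted cues that attract or repel. Netrins attract through Dcc and repel through Unc5 receptors, Slits repel through Robos, semaphorins act through plexins with or without neuropilins, and ephrins signal in both directions with Eph receptors across cell contacts. Many of these molecules also act outside the nervous system, in vessels, epithelia and mesenchyme.

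Values are counts of sense read bases at B6/JF1 differences, both alleles summed, given as CPM, the count scaled to a common effective library size. Depth was 5192382 to 8618253 read bases per library, and the 59 genes together took 0.116% to 0.135% of them in ESCs, 0.240% to 0.317% at day 12, 0.323% to 0.386% at day 21, 0.266% to 0.405% at E13.5 and 0.428% to 0.553% at P0. A gene's CPM depends on how many strain differences its reads cover, from 1 for Efna3 and Sema3f to 72 for Sema5a, so levels are compared between stages and not between genes. Neurod6, a transcription factor of cortical excitatory neurons, averaged 150.2 CPM at E13.5 and 130.3 at P0, against 0.03 at day 12 and 0.74 at day 21. Of the neuronal markers tested, 12 of 12 were lower at day 12 than at E13.5 and 13 of 13 lower at day 21 than at P0. Dorsal telencephalic progenitor markers summed to 1421 to 2736 CPM at day 12 and 1776 to 1957 at day 21. In the tissue they summed to 3274 to 3736 at E13.5 and 779 to 896 at P0. Gene by gene, 1 of 13 tested was higher and 10 were lower at day 12 than at E13.5 (median log2 -2.96). At day 21 against P0, 4 of 13 were higher and 7 lower (median log2 -0.44), although the sum was higher in culture. Caudal neural tube markers summed to 43.5 to 66.8 CPM at day 12 and 34.7 to 44.6 at day 21. In the tissue they summed to 0 to 1.35 at E13.5 and 0 to 1.15 at P0. They were already present in ESCs, at 29.3 to 71.1 CPM, and of 3 tested from ESCs to day 12, 1 rose and 2 fell. Summed markers of epithelium, endoderm and smooth muscle ran from 2297 to 4052 CPM at day 12 and 3088 to 3912 at day 21, against 12.2 to 54.8 at E13.5 and 24.3 to 30.8 at P0. Summed markers of meninges and fibroblasts ran from 1574 to 2435 CPM and 7342 to 11393 in the cultures, against 8.85 to 689 and 79.6 to 201 in the tissue. The part of this cell make-up in the results below was not tested, and in bulk RNA fewer cells of a type and less RNA per cell cannot be told apart.

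Promoters are shown for the 2 genes that were highest and the 2 that were lowest in culture, by mean change over both culture-cortex pairs, among genes that passed in both and have a single entry in the RefSeq promoter table. Each is the 250 bases before the start, 5′ to 3′ on the gene's strand (RefSeq, GRCm38.p6), with GC boxes (GGGCGG or its complement CCGCCC) in capitals. Unc5b lies at chr10:60831582-60831831 (minus strand), Ephb4 at chr5:137349859-137350108 (plus), Epha5 at chr5:84417383-84417632 (minus) and Plxna2 at chr1:194619579-194619828 (plus).
Unc5b: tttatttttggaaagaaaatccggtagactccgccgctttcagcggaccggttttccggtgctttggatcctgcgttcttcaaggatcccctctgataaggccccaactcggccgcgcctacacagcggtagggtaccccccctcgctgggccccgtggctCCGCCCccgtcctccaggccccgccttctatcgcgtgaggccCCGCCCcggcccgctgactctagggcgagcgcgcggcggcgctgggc
Ephb4: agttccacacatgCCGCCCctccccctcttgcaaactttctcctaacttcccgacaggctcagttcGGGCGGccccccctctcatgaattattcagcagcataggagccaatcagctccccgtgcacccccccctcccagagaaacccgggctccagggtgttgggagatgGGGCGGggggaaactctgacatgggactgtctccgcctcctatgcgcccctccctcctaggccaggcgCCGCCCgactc
Epha5: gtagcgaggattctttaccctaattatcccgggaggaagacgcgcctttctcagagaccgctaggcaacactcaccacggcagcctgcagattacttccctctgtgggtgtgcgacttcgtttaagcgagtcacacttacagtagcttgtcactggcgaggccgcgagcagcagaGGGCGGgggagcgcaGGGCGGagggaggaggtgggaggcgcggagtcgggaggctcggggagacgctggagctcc
Plxna2: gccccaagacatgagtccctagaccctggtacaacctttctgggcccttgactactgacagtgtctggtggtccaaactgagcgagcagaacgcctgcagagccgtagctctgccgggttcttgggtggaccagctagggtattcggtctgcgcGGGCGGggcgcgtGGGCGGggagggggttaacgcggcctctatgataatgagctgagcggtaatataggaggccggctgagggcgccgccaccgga
Of the 2 genes high in culture, Unc5b had 2 GC boxes and Ephb4 had 4. The 2 genes low in culture, Epha5 and Plxna2, had 2 each. GC content of these promoters was 62.4% to 66.8%. Promoters were found for 51 of the 59 genes (67 start sites). A GC box was present in 71.6% of these, against 32.7% of 32851 promoters in the table. Median GC content was 64.0% in guidance promoters and 52.4% in all, and the shares were not adjusted for it. The share was 73.3% of the 15 promoters of genes higher in culture at both pairs and 54.5% of the 22 of genes lower at both. These belong to 11 and 16 genes, and their difference was not tested. The E-box CANNTG, searched on both strands as it is its own complement, was present in 50.7% of guidance promoters and 66.2% of all. These are matches of letters and not shown sites of binding.

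At the earlier pair, day 12 culture against E13.5 cortex, members differed in both directions. Ntn1, which encodes netrin-1, was 4.81 log2 units higher in culture, and its repulsive receptors Unc5b and Unc5c were 3.97 and 3.87 higher, while Unc5d was 5.06 lower. All 4 tested ephrin-A ligands were higher, and 3 of the 5 tested EphA receptors, Epha3, Epha4 and Epha5, were lower. Plexins divided, with Plxna2 and Plxna4 lower and Plxna1, Plxnb2 and Plxnd1 higher. Of 53 members tested, 44 (83%) passed at an adjusted p of 0.05 (edgeR quasi-likelihood test, Benjamini-Hochberg over all genes), 24 higher and 20 lower in culture. Of all 10930 genes tested, 80.2% passed, 39.5% as higher and 40.7% as lower, so the members' share lay near the background. The members' median difference was -0.01 log2, against -0.03 over all genes tested. The floor for testing, a mean of 20 read bases, was taken over both groups together. Of the 53, 7 had a mean under it in one group and so reached it through the group where they were higher: Efna1 and Epha1 through culture, and Epha5, Ntn4, Sema4a, Sema4f and Unc5d through E13.5.

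Netrin-1 measured 227, 168, 137 and 110 CPM in the day 12 libraries (BJ1, BJ1, JB6, JB6; this order is kept for the cell stages), and 1.89, 6.34 and 9.61 as the lowest, median and highest of the 6 E13.5 libraries. The groups did not overlap, and the difference was 4.81 ± 0.39 log2 (SE; adjusted p = 6.0e-07). Ntn4, a laminin-related netrin, was low in both and slightly lower in culture, at 3.32, 2.36, 2.70 and 2.25 CPM against 3.48, 4.503 and 5.85 (log2 -0.70 ± 0.25, adjusted p = 0.021).

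Unc5b measured 418, 282, 479 and 342 CPM at day 12 against 18.0, 25.2 and 34.3 at E13.5 (log2 3.97 ± 0.17, adjusted p = 8.9e-10). Unc5c measured 49.1, 74.4, 67.4 and 63.6 CPM against 2.99, 4.37 and 7.76 (log2 3.87 ± 0.20, adjusted p = 2.5e-09). For both receptors every culture library lay above every E13.5 library. Unc5d, a receptor of upper-layer and migrating cortical neurons, went the other way, at 0.59, 1.63, 1.497 and 1.19 CPM (32 read bases in all) against 19.2, 53.5 and 71.4 (log2 -5.06 ± 0.33, adjusted p = 2.0e-08). Unc5a did not pass (log2 -0.36 ± 0.25, adjusted p = 0.19).

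Among the Slit ligands, Slit3 was near constant across the day 12 libraries, at 43.6, 46.6, 45.5 and 44.6 CPM, and far lower at E13.5, at 2.38, 2.86 and 5.34 (log2 3.82 ± 0.20, adjusted p = 2.1e-09). Slit1 was higher by 0.80 ± 0.17 (adjusted p = 0.00082) with overlapping groups, and Slit2 did not pass (0.04 ± 0.14). Of their receptors, Robo2 was lower in culture, at 21.9, 35.0, 30.4 and 33.9 CPM against 45.6, 78.0 and 114 (log2 -1.22 ± 0.21, adjusted p = 0.00014). Robo1, Robo3 and Robo4 did not pass, and their groups overlapped.

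Class 3 semaphorins are secreted and, with the exception of Sema3e, which binds Plxnd1 directly, need neuropilins. Sema3d measured 32.1, 48.3, 47.3 and 20.03 CPM against 3.78, 5.65 and 8.18 (log2 2.73 ± 0.28, adjusted p = 1.5e-06). Sema3e measured 54.7, 49.5, 70.1 and 23.8 CPM against 6.20, 8.89 and 13.52 (log2 2.52 ± 0.27, adjusted p = 2.6e-06). Neither overlapped, although JB6 replicate 2 was the lowest day 12 library for both. Sema3c was higher by 0.65 ± 0.22 and Sema3a, a repellent of cortical axons, lower by 0.73 (log2 -0.73 ± 0.21). Of the 13 membrane-bound semaphorins, 7 were lower and 4 higher. The lower ones were led by Sema6d, at 20.5, 35.7, 26.5 and 38.9 CPM against 106, 160 and 212 (log2 -2.25 ± 0.21), and Sema5a, at 45.5, 65.1, 59.1 and 26.9 CPM against 189, 239 and 298 (log2 -2.19 ± 0.21). Sema7a, the GPI-anchored ligand of Plxnc1, was lower by 1.87 (log2 -1.87 ± 0.15), and its receptor Plxnc1 also (log2 -1.40 ± 0.18). Sema5b (log2 -1.51 ± 0.21) and Sema4f (log2 -1.28 ± 0.29) were lower too, and both calls were lost when male libraries alone were used, at -0.85 and -1.04, where a single E13.5 library remained.

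Plexin A2, a receptor for class 6 semaphorins, measured 41.6, 51.9, 37.1 and 25.7 CPM at day 12 against 271, 415 and 542 (log2 -3.26 ± 0.15, adjusted p = 1.2e-09). Plxna4 measured 13.49, 13.1, 18.0 and 13.04 CPM against 80.1, 151 and 207 (log2 -3.15 ± 0.26, adjusted p = 2.4e-07). Plxna1 measured 277, 281, 236 and 199 CPM against 78.9, 99.8 and 134 (log2 1.34 ± 0.11, adjusted p = 1.2e-07). Thus the A plexins did not move as a group, and in all 3 cases the libraries of culture and cortex did not overlap.

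The ephrin-A ligand Efna1 measured 22.3, 13.97, 19.8 and 22.8 CPM against 1.89, 2.64 and 3.02 (log2 3.04 ± 0.20, adjusted p = 1.6e-08), from 101 read bases in all at E13.5. Efna5 (log2 2.04 ± 0.38), Efna2 (1.13 ± 0.10) and Efna4 (1.00 ± 0.13) were higher as well. The 2 autosomal ephrin-B ligands divided, Efnb3 being higher (1.27 ± 0.17) and Efnb2, which also marks arterial endothelium, lower (log2 -1.27 ± 0.11).

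Epha5 measured 1.95, 3.81, 1.05 and 2.13 CPM at day 12 (56 read bases in all), against 160, 219 and 292 at E13.5 (log2 -6.50 ± 0.20, adjusted p = 7.4e-11). Epha4 measured 36.4, 54.1, 31.6 and 36.0 CPM against 256, 299 and 382 (log2 -2.89 ± 0.13), and Epha3 8.60, 21.2, 17.1 and 13.2 against 65.9, 107 and 126 (log2 -2.65 ± 0.24). Epha7 did not pass, at -0.11 ± 0.18. Epha1, a receptor found mostly in epithelia, was the exception: it measured 13.7, 11.4, 13.8 and 12.2 CPM at day 12, and 3 read bases were counted in all 6 E13.5 libraries, one in each JB6 library. The ratio was 169.8, with a 95% counting interval of 57.6 to 828 that covers counting error only. Of the EphB receptors, Ephb3 (log2 2.49 ± 0.14) and Ephb4 (2.15 ± 0.11) were higher, and Ephb1 (log2 -1.84 ± 0.17) and the kinase-inactive Ephb6 (log2 -1.001 ± 0.18) lower.

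**Figure D1:**
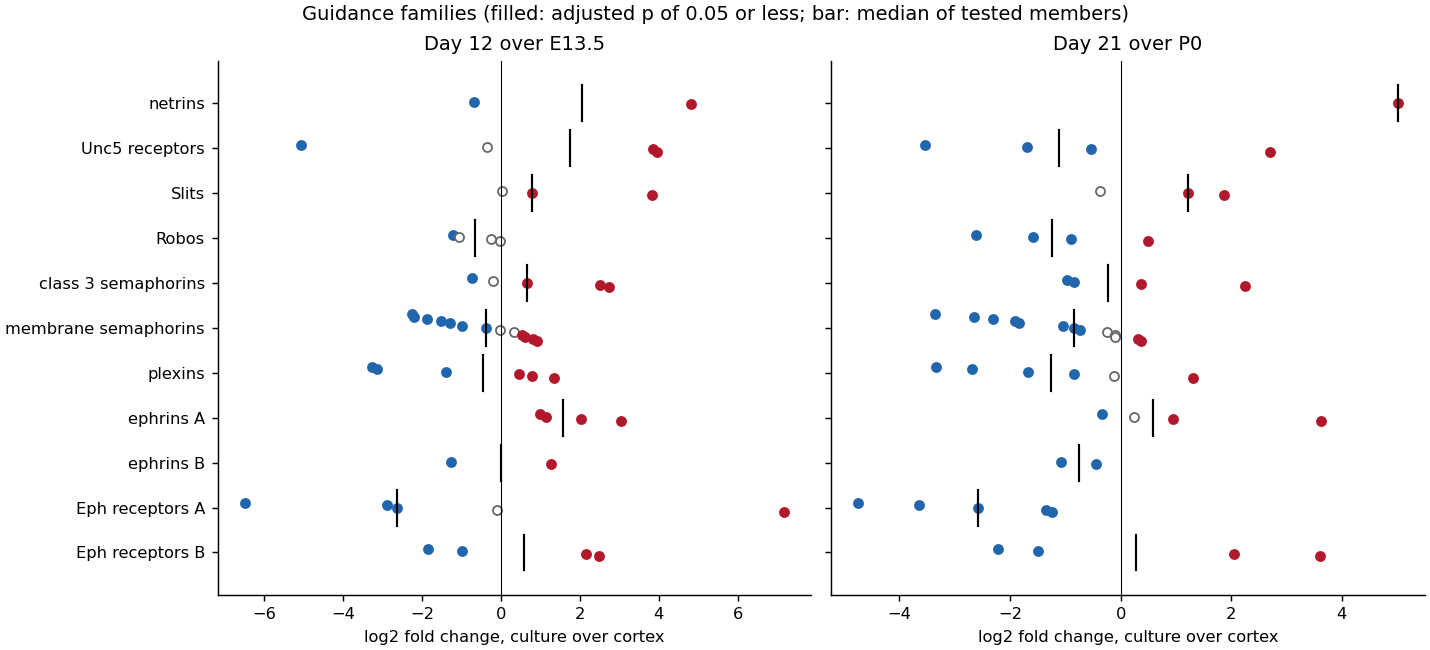
Log2 fold change of each tested member in culture over cortex, by family, for day 12 over E13.5 (left) and day 21 over P0 (right); filled points passed at an adjusted p of 0.05, open points did not, and black bars are family medians. EphA receptors lie mostly left of 0 in both panels (medians -2.65 and -2.58), and the Unc5 receptors span from -5.06 to 3.97 on the left.

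Libraries of the E13.5 tissue differed by cross. For 21 of the 53 members tested (39.6%) all 3 BJ1 libraries lay above all 3 JB6 libraries, against 18.1% of all genes tested, and for 5 members (9.43%) all lay below, against 9.44%. Unc5d measured 71.4, 65.0 and 67.6 CPM in BJ1 and 28.9, 19.2 and 42.0 in JB6, and Plxna4 158, 185 and 207 against 80.1, 84.4 and 145. Summed neuronal markers were 2673 to 2853 CPM in BJ1 and 1543 to 2378 in JB6, and those of meninges and fibroblasts 8.85 to 182 and 366 to 689. The part of these differences in the results was not tested. The main fits of levels held 1 term for cross, shared by the stages compared, which does not remove a split present at E13.5 alone. Within the BJ1 libraries 41 members passed and within the JB6 libraries 38. The share of all genes passing within each cross was not taken.

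At the later pair, day 21 culture against P0 cortex, more members were lower in culture than higher. Of 23 tested receptors 17 were lower and 5 higher, and of 27 tested ligands 13 were lower and 9 higher. All 5 tested EphA receptors were lower. Epha1 and Epha10 were not tested at this pair. Epha1 went the other way, with 610 read bases at day 21 and 0 at P0, and Epha10 had 28 and 19. Netrin-1 was again far higher in culture (Ntn1, 5.01 ± 0.23 log2). In total 45 of 51 tested members (88.2%) passed, 15 higher and 30 lower. Of all 11529 genes tested 83.5% passed, 40.7% as higher and 42.8% as lower, against 29.4% and 58.8% of the members. The median difference was -0.84 log2 for the members and -0.06 for all genes tested. Efna1 reached the floor through culture (74 read bases in all at P0) and Epha6 through P0 (14 in all at day 21).

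Netrin-1 measured 317, 313, 434 and 538 CPM at day 21 against 5.75, 10.7 and 24.7 (lowest, median and highest of 7) at P0 (adjusted p = 1.1e-11). The groups lay far apart, although JB6 replicate 3 was above the other P0 libraries. Unc5b measured 164, 159, 182 and 163 CPM against 17.2, 29.6 and 33.2 (log2 2.71 ± 0.13, adjusted p = 8.5e-12). Unc5d measured 7.89, 10.6, 9.58 and 6.42 CPM against 86.1, 100.03 and 110 (log2 -3.53 ± 0.13), and Unc5a, which did not differ detectably at the earlier pair, 11.2, 12.1, 8.32 and 12.8 against 28.6, 35.7 and 41.1 (log2 -1.69 ± 0.13). Unc5c, which had been far higher at day 12, was lower at day 21, at 32.0, 36.3, 30.3 and 19.6 CPM against 33.5, 40.4 and 50.1 (log2 -0.53 ± 0.15, adjusted p = 0.0040), with overlapping groups.

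Slit3 (log2 1.87 ± 0.16) and Slit2 (1.21 ± 0.14) were higher in culture. Slit2 measured 56.5, 69.6, 95.8 and 64.2 CPM against 26.0, 28.4 and 40.1 at P0, without overlap. Robo2 measured 35.1, 35.8, 29.0 and 20.8 CPM against 144, 195 and 219 (log2 -2.62 ± 0.13, adjusted p = 6.9e-12). Robo1 (log2 -0.89 ± 0.11) and the endothelial Robo4 (log2 -1.58 ± 0.18) were lower as well. Thus 2 of 3 Slit ligands were higher while 3 of 4 Robo receptors were lower. Robo3, a regulator of midline crossing, passed as higher (0.50 ± 0.21, adjusted p = 0.034), with overlapping groups, but not without any 1 of 5 libraries: BJ1 replicate 2 (0.42) or JB6 replicate 1 (0.36) of day 21, or BJ1 replicate 1 (0.44), JB6 replicate 1 (0.46) or JB6 replicate 2 (0.45) of P0.

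Sema7a measured 15.0, 23.7, 24.5 and 18.6 CPM at day 21 against 172, 200.1 and 243 at P0 (log2 -3.35 ± 0.15, adjusted p = 3.4e-12). Sema4f (log2 -2.65 ± 0.14), Sema4g (log2 -2.30 ± 0.16), Sema6d (log2 -1.90 ± 0.12) and Sema6b (log2 -1.84 ± 0.09) were lower without overlap, and 8 of 13 membrane-bound semaphorins were lower in all. Sema3d was higher (2.26 ± 0.30), at 37.7, 24.2, 14.8 and 26.0 CPM against 2.60, 5.64 and 10.4. Its difference was 1.39 within JB6 and 3.58 in male libraries. Sema3e (0.37 ± 0.12, adjusted p = 0.0096) and Sema4d (0.36 ± 0.13, adjusted p = 0.016) were slightly higher. Sema3e did not pass within JB6 (0.20) or in a joint fit of all stages (0.40). Sema4d did not within BJ1 (0.29), with a term for replicate number (0.31) or without BJ1 replicate 2 of day 21 (0.32). In male libraries, where a single P0 library remained, the differences were 0.48 for Sema3e and 0.08 for Sema4d.

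Plxna4 measured 37.8, 34.4, 55.6 and 20.3 CPM against 279, 356 and 444 (log2 -3.34 ± 0.22), and Plxna2 96.4, 78.5, 98.4 and 62.4 against 412, 546 and 613 (log2 -2.68 ± 0.14). Plxnb2, a receptor of class 4 semaphorins found in many epithelia, was higher, at 534, 443, 474 and 470 CPM against 157, 192 and 232 (1.31 ± 0.09, adjusted p = 1.0e-09). Plxna1 did not pass (log2 -0.12 ± 0.09).

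Efna1 measured 24.0, 17.7, 23.7 and 16.9 CPM against 1.18, 1.59 and 2.18 (log2 3.63 ± 0.19, adjusted p = 2.5e-11), and Efna4 was higher by 0.94 ± 0.13. Ephb4, the receptor of Efnb2 in veins, measured 141, 134, 108 and 135 CPM against 6.28, 10.7 and 13.7 (3.61 ± 0.12, adjusted p = 1.4e-13), and Ephb3 was higher by 2.05 ± 0.11. These 2 EphB receptors were thus higher in culture at both pairs, and Ephb1 (log2 -1.50 ± 0.15) and Ephb6 (log2 -2.21 ± 0.12) lower at both.

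Epha6 measured 0.29, 0.52, 1.10 and 0.17 CPM at day 21 against 9.13, 14.5 and 19.1 at P0 (log2 -4.74 ± 0.33, adjusted p = 7.5e-10). Epha5 measured 10.8, 13.02, 14.4 and 10.8 CPM against 133, 152 and 181 (log2 -3.64 ± 0.13, adjusted p = 1.6e-13), and Epha4 was lower by 2.58 (log2 -2.58 ± 0.10). Epha1 was again on the other side. It was counted 610 times at day 21 (25.4, 26.0, 18.2 and 20.3 CPM) and not at all in the 7 P0 libraries, so that it was at least 345-fold higher, with 3 read bases over the group as the floor. It was not tested there.

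Outside these families, 46 genes of the same pathways (co-receptors, adhesion partners and intracellular effectors) had been listed, and 45 were in the tables. At the earlier pair 9 of 43 tested were higher and 25 lower in culture, with a median of -0.56 log2, against 39.5% and 40.7% of all genes and their median of -0.03. At the later pair 3 of 45 were higher and 37 lower, with a median of -1.62, against 40.7% and 42.8% of all genes and their median of -0.06. Dcc, the attractive netrin receptor, averaged 25.3 CPM at day 12 and 272 at E13.5 (log2 -3.45 ± 0.30), opposite in direction to Ntn1. The adhesion molecules L1cam (log2 -4.28 ± 0.19), Cntn2 (-4.04 ± 0.21) and Chl1 (-3.82 ± 0.34), and Islr2 (-3.08 ± 0.22), were the other lowest at the earlier pair, and Mical2 (2.89 ± 0.22), an oxidase acting on actin, the highest. Ngef (1.47), Ntng1 (1.44), Farp1 (1.41) and Mical1 (1.25) followed. At the later pair Chl1 (-4.38 ± 0.13), Cntn2 (-3.65 ± 0.18), L1cam (-3.56 ± 0.14), Rnd1 (-3.31 ± 0.14) and Ntng2 (-2.93 ± 0.14) were the lowest, and the 3 higher were Farp2 (1.30 ± 0.21), Nck1 (0.78 ± 0.20) and Rgma (0.26 ± 0.11).

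The 2 pairs share no library, and 50 members were tested in both. Of these, 37 passed in both: 12 higher in culture at both pairs, 18 lower at both, 6 higher at the first and lower at the second, and 1, Sema5a, lower at the first and higher at the second. These are 74%, 24%, 36%, 12% and 2% of the members, against 69.4%, 31%, 31.4%, 3.67% and 3.32% of the 10595 genes tested in both pairs. The 12 were Efna1, Efna4, Ephb3, Ephb4, Ntn1, Plxnb2, Sema3d, Sema3e, Sema4d, Slit3, Unc5b and Unc50. The 18 included 6 Eph receptors or ephrins (Efnb2, Epha3, Epha4, Epha5, Ephb1 and Ephb6), 7 semaphorins (Sema3a, Sema4a, Sema4f, Sema4g, Sema5b, Sema6d and Sema7a), the plexins Plxna2, Plxna4 and Plxnc1, and Robo2 and Unc5d. The 6 that changed side were Efna2, Efnb3, Plxnd1, Sema3c, Sema6b and Unc5c.

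**Figure D2:**
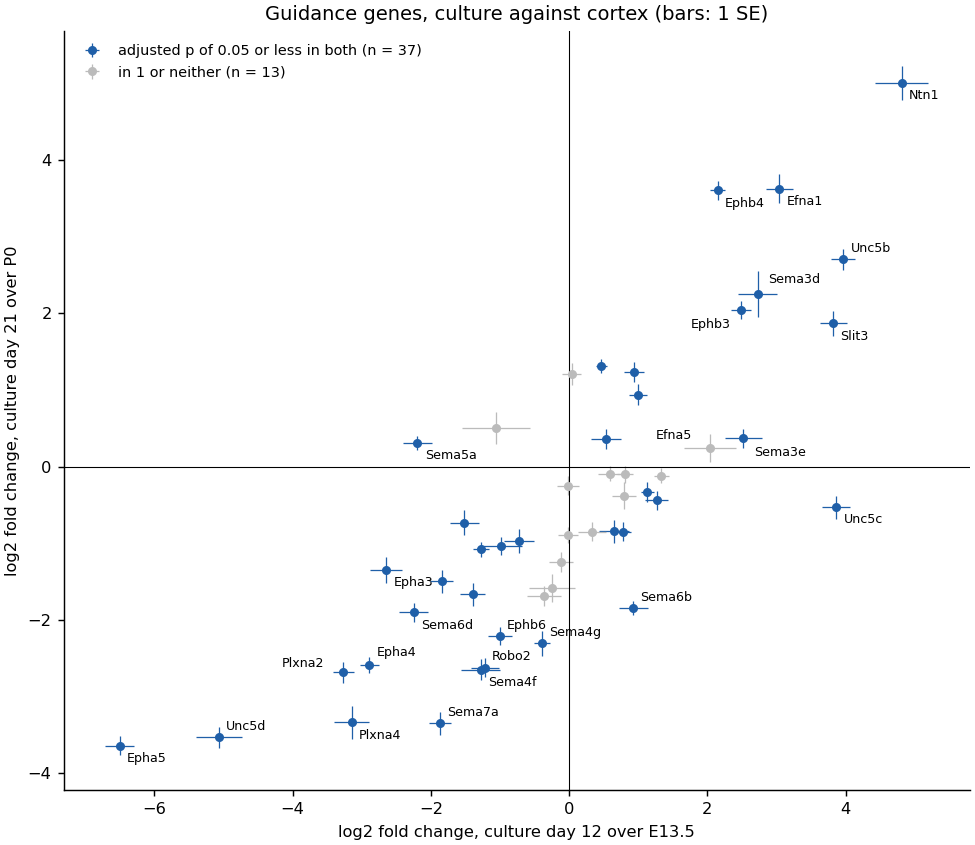
Log2 fold change of 50 members in culture over cortex, day 12 over E13.5 (horizontal) against day 21 over P0 (vertical), with bars of 1 SE; blue points passed in both pairs (37) and grey points in 1 or neither (13). Ntn1 lies at the upper right (4.81 and 5.01), Epha5 and Unc5d at the lower left, and Unc5c at the right below 0 (3.87 and -0.53).

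From ESCs to day 12, most guidance genes rose. Of 48 tested members 34 rose and 7 fell (41, or 85.4%), against 67.2% of all 10484 genes tested, of which 33.7% rose and 33.5% fell. The members' median was 1.61 log2, against -0.01 over all genes. Summed pluripotency markers fell from 2560 to 5939 CPM in ESCs to 12.4 to 53.0 at day 12, those of meninges and fibroblasts went from 1.04 to 14.5 up to 1574 to 2435, and those of epithelium, endoderm and smooth muscle from 434 to 1543 up to 2297 to 4052; their part in the result was not tested. Of the 48 members tested, 17 had a mean under the floor at one stage, and 15 of these reached it through day 12. Several were almost absent from ESCs: Sema6d had 1 read base in 4 libraries (ratio 641, 95% counting interval 115 to 25360), Ephb1 had 2 (115, interval 31.5 to 952.5), and Epha3 (102, interval 34.7 to 498) and Robo3 (71.0, interval 24.0 to 346) had 3 each. Unc5c (10 read bases in all in ESCs), Slit1 (24) and Sema3a (7) also reached the floor through day 12, and their fold changes rest on those few counts. Unc5c rose from 0.61, 0.88, 0 and 0.40 CPM (6.90 ± 0.44, adjusted p = 6.1e-07), Slit1 from 0.41, 1.05, 1.25 and 1.99 to 117, 96.7, 68.6 and 49.8 (5.97 ± 0.42), and Sema3a by 5.48 ± 0.56. Sema4b fell most, from 76.5, 92.0, 129 and 51.6 CPM to 18.6, 23.0, 15.3 and 12.2 (log2 -2.45 ± 0.29, adjusted p = 3.1e-05), then Sema4a (-1.84 ± 0.37), Robo4 (-1.38 ± 0.44), Epha1 (-1.12 ± 0.24), Ntn1 (-1.02 ± 0.26), Epha4 (-0.84 ± 0.23) and Sema4d (-0.75 ± 0.26).

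Netrin-1 was thus high before differentiation, at 348, 350, 368 and 141 CPM in ESCs, with JB6 replicate 2 apart from the others. Within the JB6 libraries 26 members passed in place of 41, and the falls of Robo4, Ntn1, Epha4 and Sema4d did not. The fall of Robo4 was lost without either BJ1 library of day 12 (-1.05 without replicate 1, -1.16 without replicate 2). That of Sema4d was lost without BJ1 replicate 2 of ESCs (-0.65), or BJ1 replicate 2 (-0.66) or JB6 replicate 2 (-0.57) of day 12.

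From day 12 to day 21 in culture, 20 of 53 members rose and 8 fell (28, or 52.8%), against 48.2% of all 11255 genes tested, of which 24% rose and 24.3% fell. The risers were led by Sema4a (2.85 ± 0.30), Unc5d (2.70 ± 0.35) and Epha5 (2.41 ± 0.33), then Sema4f (1.77 ± 0.32), Ephb6 (1.41 ± 0.25), Plxna4 (1.29 ± 0.26) and Ephb1 (1.26 ± 0.22). Unc5d went from 0.59, 1.63, 1.497 and 1.19 CPM to 7.89, 10.6, 9.58 and 6.42, and Epha5 from 1.05 to 3.81 up to 10.8 to 14.4, so both rose while staying below every cortex library. Unc5d, Epha5, Sema4a and Sema4f reached the floor through day 21. The fallers were Efna2 (-1.30 ± 0.18), Unc5b (-1.26 ± 0.16), Unc5c (-1.19 ± 0.19), Robo4 (-0.94 ± 0.36), Epha7 (-0.73 ± 0.21), Efna4 (-0.72 ± 0.18), Epha4 (-0.64 ± 0.18) and, smallest, Plxnd1 (-0.56 ± 0.15). Epha7 (-0.49) and Epha4 (-0.49) did not pass without BJ1 replicate 2 of day 12. Robo4 did not within BJ1 (-0.12), nor without JB6 replicate 2 of day 12 (-0.58) or JB6 replicate 1 (-0.70) or 2 (-0.77) of day 21. Over the same interval summed markers went from 183 to 626 up to 1453 to 1889 CPM for neurons (8 of 9 tested rose), from 314 to 378 up to 548 to 1035 for glia, from 7.59 to 18.7 up to 42.8 to 106 for microglia, and from 1574 to 2435 up to 7342 to 11393 for meninges and fibroblasts; their part in the result was not tested.

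From E13.5 to P0 in the tissue, 32 of 52 members rose and 14 fell (46, or 88.5%), against 81.5% of all 10877 genes tested, of which 38.9% rose and 42.6% fell. The median was 0.91 log2 for the members and -0.06 for all genes. Epha6, which reached the floor through P0, rose from 0 to 0.63 CPM in the 6 E13.5 libraries (14 read bases in all) to 9.13 to 19.1 (5.25 ± 0.28). Among members above the floor at both stages the rise was led by Sema6b (3.21 ± 0.09), Unc5c (3.17 ± 0.15), Sema4f (3.04 ± 0.15), Sema4a (2.84 ± 0.13), Ephb6 (2.54 ± 0.11) and Sema7a (2.50 ± 0.12). Membrane-bound semaphorins rose in 10 of 13 cases. The falls were led by Robo3 (-1.82 ± 0.24), Sema5a (-1.63 ± 0.07), Ephb4 (-1.60 ± 0.13), Epha3 (-1.48 ± 0.15), Sema5b (-1.36 ± 0.11), Epha4 (-0.99 ± 0.07) and Slit2 (-0.96 ± 0.11). Summed neuronal markers went from 1543 to 2853 CPM at E13.5 to 11430 to 12178 at P0, and those of vessels and blood from 412 to 1674 to 188 to 259.

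**Figure D3:**
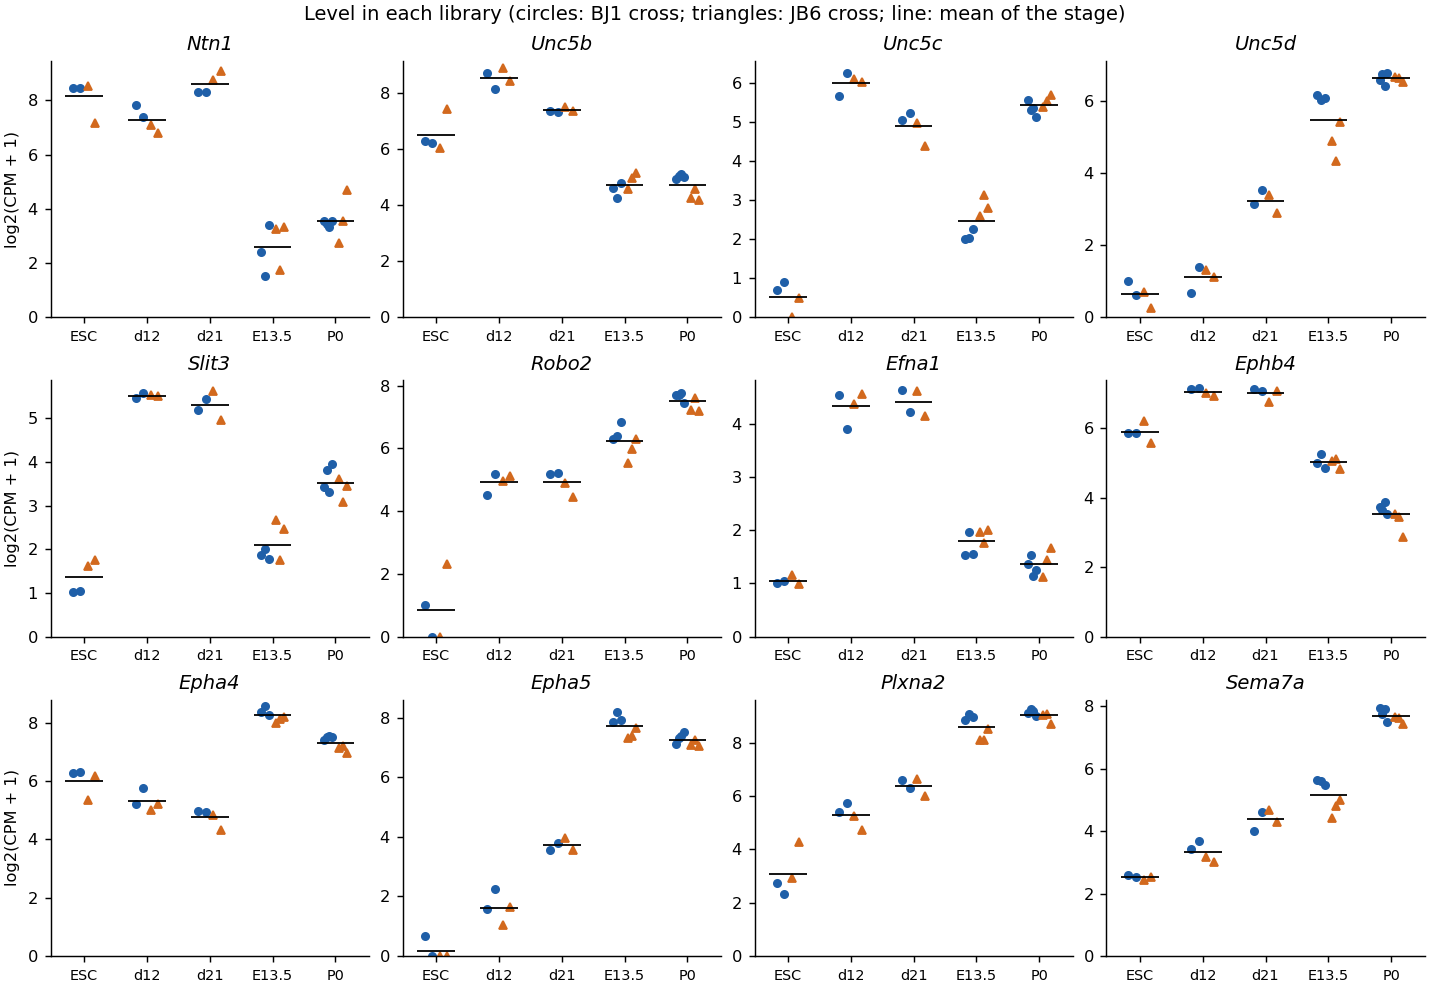
Level of 12 members in each library as log2(CPM + 1), by stage, with circles for BJ1, triangles for JB6 and a line at the stage mean. Ntn1, Unc5b, Slit3, Efna1 and Ephb4 lie higher in both culture stages than in either cortex stage, Epha4, Epha5, Plxna2, Robo2 and Unc5d lie lower, and Unc5c lies low in ESCs and at E13.5 and higher at the other 3 stages.

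Whether a gene changed alike in culture (day 12 to 21) and in tissue (E13.5 to P0) was tested as the difference of the 2 changes. Of 53 members 37 (69.8%) differed, against 50.9% of all 11406 genes. The floor was taken on the mean of the stage means, so members could reach it through the stages where they were high. Of those named, Epha5 (56 read bases in all) and Unc5d (32) were under it at day 12, and Ntn4 at day 12 (67) and P0 (111). The change was more positive in culture for 13 members (24.5%, against 28.3% of all genes) and less so for 24 (45.3%, against 22.6%), with a median of -0.33 log2 and 0.10 for all genes. Unc5c differed most: it fell by 1.19 in culture and rose by 3.17 in tissue (difference -4.25 ± 0.28, adjusted p = 4.0e-11). Sema6b (-2.67 ± 0.24), Sema3e (-2.03 ± 0.31), Slit3 (-1.85 ± 0.28), Sema4g (-1.78 ± 0.22), Efna5 (-1.69 ± 0.41) and Efnb3 (-1.61 ± 0.25) rose in tissue, and of these Efnb3 alone also rose in culture (0.75 ± 0.25), with the others not passing there.

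On the other side, Epha5 rose by 2.41 in culture and fell by 0.53 in tissue (difference 2.98 ± 0.26, adjusted p = 2.8e-09). Sema5a rose by 0.93 ± 0.22 in culture, to 110, 116, 97.3 and 72.0 CPM, and fell in tissue from 239 to 80.2 (medians), which brought the 2 systems close at the later pair (difference 2.62 ± 0.21, adjusted p = 6.9e-10). Unc5d rose in both (2.70 and 1.04, difference 1.68 ± 0.46, adjusted p = 0.0042), and within the JB6 libraries its difference was 0.87 and did not pass. Robo3 (1.65 ± 0.53), Ephb4 (1.55 ± 0.17), Ntn4 (1.44 ± 0.33) and Epha3 (1.40 ± 0.29) fell in tissue and did not pass in culture. Within 1 cross the difference did not pass for Robo3 (1.03, BJ1), Ntn4 (1.17, BJ1), Epha3 (1.14, JB6) or Efna5 (-1.81, BJ1).

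**Figure D4:**
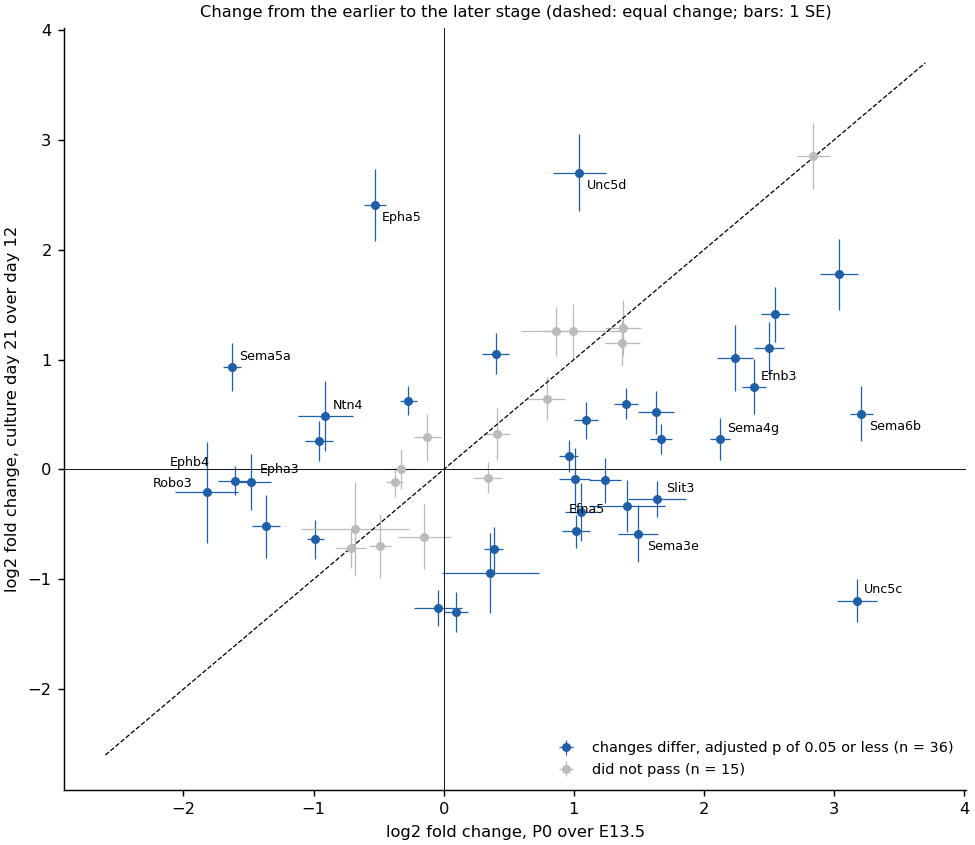
Log2 change of 51 members from E13.5 to P0 in tissue (horizontal) and from day 12 to day 21 in culture (vertical), with bars of 1 SE and a dashed line of equal change; in blue the 36 whose changes differ, in grey the other 15. Unc5c lies farthest below the line (3.17 and -1.19), and Epha5 and Sema5a lie above it.

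Because each read base carries a parental and a strain label, the same libraries give the share of the B6 allele. This readout played no part in choosing the genes. Strain differences were common. The share of members passing was near the background in ESCs and at P0, and under it at the other 3 stages by gaps that were not tested. In ESCs 15 of 33 tested members passed (45.5%, against 44.6% of all genes). In culture 14 of 48 passed at day 12 (29.2%, against 35.9%) and 10 of 52 at day 21 (19.2%, against 34.4%). In tissue 20 of 51 passed at E13.5 (39.2%, against 45.9%) and 25 of 50 at P0 (50%, against 48.2%). The B6 allele was the higher one for 10, 6, 9, 14 and 15 of them from ESCs to P0 (26.1%, 20.5%, 19.6%, 28.1% and 29.2% of all genes) and the JF1 allele for 5, 8, 1, 6 and 10 (18.5%, 15.4%, 14.8%, 17.8% and 19%). Of 54 members tested at any stage 44 passed at 1 or more, 19 of them at 1 stage only, and 7 passed in opposite directions at different stages (81.5%, 35.2% and 13%, against 72.9%, 25.7% and 8.57% of 12297 genes). In DESeq2 7, 4, 0, 12 and 15 members passed at these 5 stages. The share of all genes passing in DESeq2 was not taken, so these counts have no background beside them.

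Sema3c, a secreted semaphorin of cortical and callosal development, had the widest shift in tissue. Its B6 share at P0 was 84.1%, 82.4%, 79.0% and 81.5% in BJ1 and 79.0%, 78.5% and 74.9% in JB6, a mean of 79.9% ± 3.02 (SD, n = 7, from 3273 read bases; log2 B6 over JF1 1.98 ± 0.07, adjusted p = 3.7e-25). The B6 allele was thus the higher one whichever parent gave it. The share was 58.4% ± 3.63 (SD, n = 6) at E13.5 (log2 0.51 ± 0.09), 58.7% ± 2.42 (SD, n = 4) at day 21 (0.50 ± 0.11) and 50.9% ± 4.27 (SD, n = 4) at day 12, where it did not pass. The call at day 21 was lost in DESeq2, where 0 of 52 tested members passed at that stage.

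Sema3e leaned to JF1 in ESCs, at 20%, 23.0%, 12.6% and 17.9% B6 (log2 -2.12 ± 0.10, adjusted p = 2.0e-14). At day 12 the share was 50.4%, 50.2%, 51.9% and 45.8%, and at day 21 it did not pass either. In tissue it was 31.9% ± 7.36 (SD, n = 6) at E13.5 (log2 -1.12 ± 0.19) and 42.3% ± 5.28 (SD, n = 7) at P0 (log2 -0.45 ± 0.10). The change of the share between stages was not tested. Ephb6 was also low in B6 reads in ESCs, at 21.4%, 11.5%, 34.3% and 16.7% of 101 read bases in all (log2 -1.78 ± 0.40), and 46.7% ± 2.46 (SD, n = 7) at P0.

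Efna2 passed as higher from B6 at all 5 stages, with mean shares of 63.6%, 56.3%, 55.7%, 57.9% and 57.0% from ESCs to P0, and Plxnc1 at 4 of 5, from 52.8% ± 1.51 (SD, n = 7) at P0 to 61.7% ± 3.94 (SD, n = 4) in ESCs. The Efna2 call at day 21 was lost without any 1 of the 4 libraries (log2 0.26 to 0.41), and that in ESCs without BJ1 replicate 1 (0.72) or 2 (0.94) or JB6 replicate 1 (0.61). The Plxnc1 call in ESCs was lost without BJ1 replicate 2 (0.60). In DESeq2 the Efna2 calls in ESCs (0.82), at day 12 (0.37) and at day 21 (0.34) did not pass. Those of Plxnc1 in ESCs (0.68), at day 21 (0.53) and at P0 (0.17) did not pass there either. Efna4 passed at day 12, day 21 and P0. In DESeq2 its calls at day 21 (0.39) and P0 (0.40) did not pass. Its call at day 21 was lost without BJ1 replicate 1 (0.43) or 2 (0.36) or JB6 replicate 2 (0.24), and at P0 without BJ1 replicate 2 (0.27), JB6 replicate 1 (0.37) or JB6 replicate 3 (0.32). Sema7a passed in ESCs and both culture stages, but not without any 1 of the 4 libraries of day 12 (0.47 to 0.77) or day 21 (0.33 to 0.52), nor in ESCs without BJ1 replicate 1 (0.96) or 2 (0.97) or JB6 replicate 2 (0.51). Robo2 leaned to JF1 at day 12, at 42.9%, 43.0%, 37.4% and 37.8% (log2 -0.57 ± 0.14), and slightly at P0 (47.9% ± 1.18, SD, n = 7). Unc5c did so at day 12 (41.8% ± 2.71, SD, n = 4) and E13.5 (36.9% ± 8.48, SD, n = 6), the latter not without BJ1 replicate 3 (log2 -0.66). Sema3a leaned to JF1 at E13.5 (44.4% ± 2.67, SD, n = 6) and P0 (45.1% ± 4.21, SD, n = 7), where the call was lost without any 1 of BJ1 replicates 2, 3 and 4 or JB6 replicates 1 and 2 (log2 -0.21 to -0.26).

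**Figure D5:**
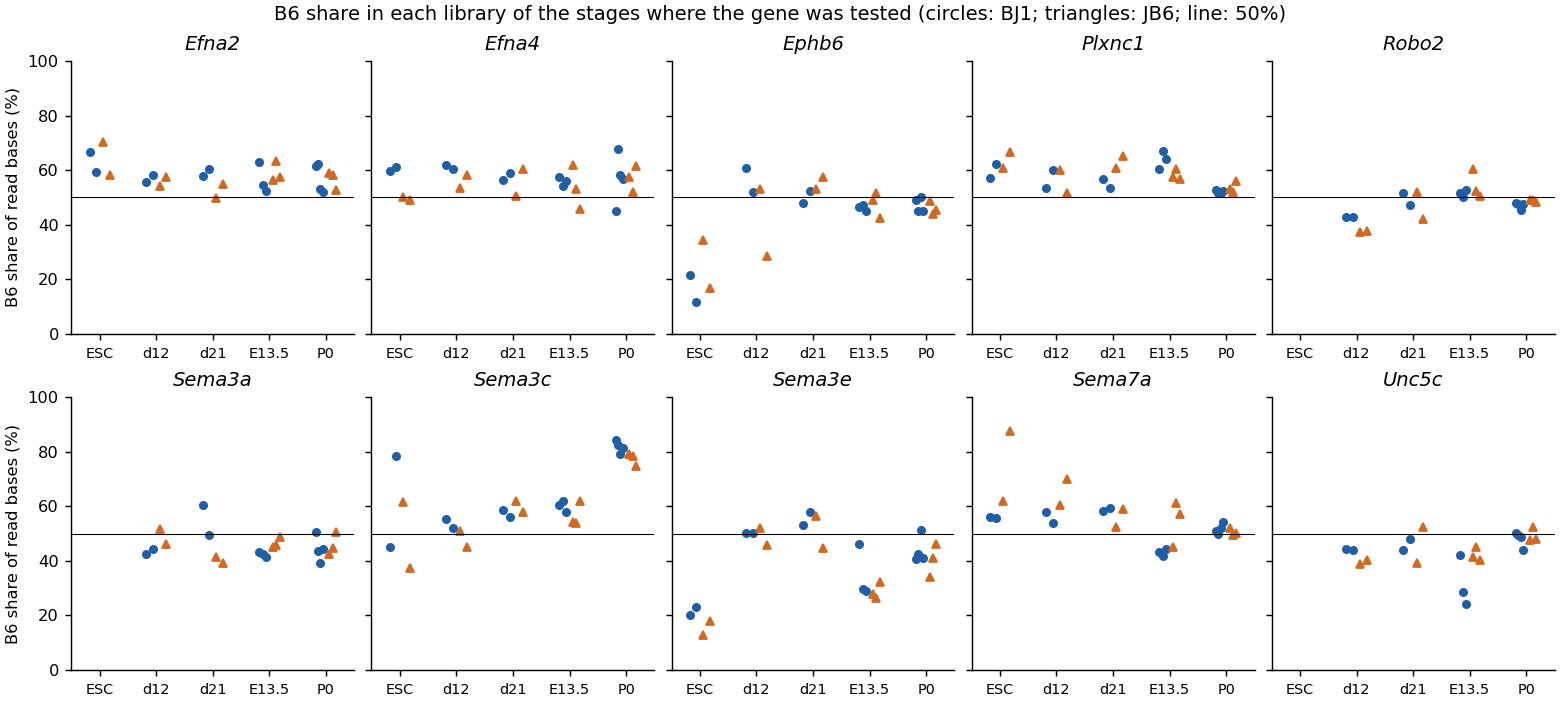
B6 share of read bases, in percent, in each library for the 10 members named for strain differences, at the stages where each was tested; circles are BJ1, triangles JB6, and the line marks 50%. Sema3c at P0 lies between 74.9% and 84.1% in both crosses, and Sema3e in ESCs between 12.6% and 23.0%.

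No member showed a parental bias at an adjusted p of 0.05 at any stage, where 1.4%, 1.78%, 1.38%, 0.49% and 0.548% of all genes tested passed from ESCs to P0 (ESCs, day 12, day 21, E13.5, P0; edgeR). Of all genes, 1.05%, 1.3%, 1.06%, 0.22% and 0.231% passed as higher from the mother and 0.356%, 0.483%, 0.326%, 0.27% and 0.317% as higher from the father. At an unadjusted p of 0.05, 2, 0, 2, 4 and 1 members passed, and DESeq2 with adjustment gave 0 at each stage. The nearest was Sema7a at E13.5, higher from the father (maternal over paternal log2 -0.36 ± 0.10, adjusted p = 0.084). Without JB6 replicate 1 of E13.5 it passed (-0.46, adjusted p = 0.0054), as did Sema4b, higher from the mother (0.62, adjusted p = 0.028).

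Of the 59 members, 54 were tested in at least 1 comparison of stages and 53 passed in at least 1 (98.1%, against 97.5% of all genes). The 5 never tested were Sema3f (4 read bases in all libraries), Ntn5 (22), Epha10 (66), Unc5cl (70) and Efna3 (264). Unc50, which shares the spelling alone, was higher in culture at both pairs (0.94 ± 0.14 and 1.24 ± 0.13).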

How the data were processed

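The deposited values used here are counts: sense read bases at C57BL/6/JF1 differences, per gene, allele and library, in 1 table per stage. Per the submitters' processing notes, CASAVA 1.8.2, Novoalign, HTSeq and edgeR were used with mouse genome build mm9. Per the labels' protocols, libraries were stranded mRNA libraries from total RNA. A read over several differences adds several counts, so counting intervals and floors cover counting error only and are optimistic. No reads were reprocessed, and E14 libraries were not analysed here.

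Maternal and paternal counts were summed per library. Groups, crosses and replicate numbers came from the labels. Genes listed at both stages with a mean of at least 20 counts were tested with edgeR 4.0.16 (R 4.3.3), using TMM scaling, the robust quasi-likelihood test, terms for stage and cross, and Benjamini-Hochberg adjustment over all genes (threshold 0.05). SE is the absolute log2 fold change over the square root of F. Alleles were tested per stage with terms for library, strain and parent. Scripts were tested on simulated data. Up to 14 genes per direction were named for each culture-cortex pair, 7 for the other comparisons and 5 for strain. Alternatives included DESeq2 1.42.0, other scalings and floors, each cross alone, male libraries alone, the replicate block, and each library left out. Members and lists were chosen with earlier results of these data known. CPM is per TMM-effective library size over all 25 libraries. Promoters came from the RefSeq table of GRCm38.p6, and no coordinates were converted from mm9.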

Additional observations from a re-analysis of the deposited data

Results flagged for a closer look

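In 13 of 208 groups of levels checked, 1 library stood apart from the rest of its group, where chance gives about 1 in 20. In ESCs, JB6 replicate 2 stood apart for 4 genes: Ntn1 was 141 CPM there and 348 to 368 in the others, Unc5b 174 against 65.3 to 76.9, Sema3c 17.5 against 2.46 to 4.06, and Sema4a 5.58 against 9.77 to 10.4. Efna2 was 9.77 CPM in JB6 replicate 1 of ESCs (6.18 to 6.70 in the others), and Sema4d 67.4 in BJ1 replicate 2 (47.4 to 48.9). At P0, JB6 replicate 3 stood apart for 3 genes: Ntn1 was 24.7 CPM (5.75 to 10.8 in the others), Plxnc1 144 (81.9 to 96.7) and Efna4 10.0 (13.9 to 15.5). At day 21, Efna4 was 20.6 CPM in JB6 replicate 1 (28.7 to 29.9), and BJ1 replicate 1 was low for Ntn4, at 3.07 (4.08 to 4.23), and Sema4f, at 7.30 (11.5 to 11.8). At day 12, Plxna4 was 18.0 CPM in JB6 replicate 1 (13.04 to 13.49).

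The change from the earlier to the later stage differed between culture and tissue for the members named in that comparison (log2 change in culture less that in tissue, edgeR interaction term). It was more positive in culture for Epha5 (2.98), Sema5a (2.62), Unc5d (1.68), Robo3 (1.65), Ephb4 (1.55), Ntn4 (1.44) and Epha3 (1.40). It was less positive for Unc5c (-4.25), Sema6b (-2.67), Sema3e (-2.03), Slit3 (-1.85), Sema4g (-1.78), Efna5 (-1.69) and Efnb3 (-1.61).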

How the results depend on the processing

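No named difference reversed under any alternative run. Within JB6 26 members passed for day 12 against ESCs, in place of 41, and 46 within BJ1. For strain, DESeq2 gave 7, 4, 0, 12 and 15 members over the 5 stages from ESCs to P0, in place of 15, 14, 10, 20 and 25, and counts divided by 3 gave 9, 4, 13 and 16 over the last 4. The cause was not tested, and the share of all genes passing was not taken under these alternatives. Leaving out 1 library gave 42 to 45 members for day 12 against E13.5, 42 to 46 for day 21 against P0, 35 to 43 for day 12 against ESCs, 24 to 28 for day 21 against day 12, 44 to 47 for P0 against E13.5 and 34 to 38 for the difference of changes. For strain it gave 8 to 14 in ESCs (8 without BJ1 replicate 1), 9 to 11 at day 12 (9 without JB6 replicate 1), 4 to 6 at day 21 (5 and 4 without BJ1 replicates 1 and 2, 6 without either JB6 library), 17 to 21 at E13.5 and 21 to 24 at P0. For parental bias it gave 0 to 2 at E13.5 (2 without JB6 replicate 1) and 0 elsewhere. With the replicate block 43, 43, 39, 26, 46 and 35 members passed in these 6 comparisons of stages. Deviations of same-numbered libraries from their stage and cross means had correlations of -0.30 to 0.11. With 2 libraries per cross the deviations mirror each other, so these values cannot decide whether same-numbered libraries share a culture, animal or day. Without scaling, the median of all genes moved to 0.26 log2 for day 12 against ESCs and -0.19 for day 12 against E13.5. The 5 members never tested held 4 to 264 read bases over all libraries, and their reads covered at most 1 to 8 strain differences. Low expression and few covered differences were not told apart.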
